A study of Arabidopsis thaliana with 12 samples.

Results

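The miRNAs described here are the young, three-digit ones of Arabidopsis thaliana. They are every mature name from ath-miR400 to ath-miR899 in the annotation of the deposited small RNA table, apart from 8 numbers (miR403, miR408, miR780, miR827, miR843, miR845, miR848 and miR857) that the rule leaves out. That gives 75 miRNAs in 101 bins, of 273 miRNAs and 369 bins with a miRNA name in a table of 152484 bins of 100 bp. Because some share a bin, the 75 names make 72 separate values.

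Small RNA of inflorescences was sequenced from 4 genotypes with 3 biological replicates each. The mutants were ntp4-1, heso1-1 and urt1-1, named after the nucleotidyl transferases NTP4, HESO1 and URT1, and the wild type was Col-0, which is also the reference for all 3 comparisons. No treatment was given, all plants grew in long days, and the labels name no second allele, complemented line, age or pool size. The study asked how these enzymes shape miRNA accumulation and the balance of the 5p and 3p strands. Values are RPM, read numbers scaled by the authors to a common library size.

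A plant miRNA is cut from a hairpin as a duplex of a 5p and a 3p strand. ARGONAUTE1 keeps one of them, preferentially when it begins with U, and the methyltransferase HEN1 protects the ends of the duplex. HESO1 and URT1 are known to add uridines to miRNAs that lack this methyl group. Young miRNAs are those found in few plant lineages: they are mostly low, come from single genes, and include some hairpins still cut by DICER-LIKE 4 and some that guide cleavage of disease resistance, MYB or F-box transcripts.

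The mature sequences of the members that the results turn on are shown first, from the RefSeq annotation of build TAIR10.1, 5′ to 3′, with the seed (bases 2 to 8) in capitals. The miR447 and miR858 pairs are shown because their copies can hardly be told apart, and miR472, miR846 and miR863 because both strands were measured. miR831-3p and miR782 are shown because all ntp4-1 libraries lay below all Col-0 libraries.
ath-miR447a-3p: uUGGGGACgagauguuuuguug
ath-miR447b: uUGGGGACgagauguuuuguug
ath-miR447c-3p: uUGGGGACgacaucuuuuguug
ath-miR858a: uUUCGUUGucuguucgaccuu
ath-miR858b: uUCGUUGUcuguucgaccuug
ath-miR472-5p: aUGGUCGAaguaggcaaaauc
ath-miR472-3p: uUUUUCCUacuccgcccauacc
ath-miR846-5p: cAUUCAAGgacuucuauucag
ath-miR846-3p: uUGAAUUGaagugcuugaauu
ath-miR863-5p: uUAUGUCUuguugaucucaau
ath-miR863-3p: uUGAGAGCaacaagacauaau
ath-miR831-3p: uGAUCUCUucguacucuucuug
ath-miR782: aCAAACACcuuggauguucuu

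In TAIR10.1, miR447a-3p lies at chr4:1528190-1528211, miR447b at chr4:1535482-1535503 and miR447c-3p at chr4:1523362-1523383, all on the minus strand and outside protein-coding genes. miR447a-3p and miR447b were identical (0 differences in 22 bases). miR447c-3p differed from them by G11C and G14C, counted from 1 at the 5′ end, with the base of miR447a-3p first. miR858a (chr1:26773695-26773715, minus strand) and miR858b (chr1:26772907-26772927, plus strand) were the same sequence shifted by 1 base, with 20 bases in common, so their seeds differ by that shift. The miR472 strands (chr1:4182143-4182164 for 3p and chr1:4182266-4182286 for 5p, minus strand) lie in MIR472, AT1G12294, in bins that also overlap the protein-coding gene AT1G12290. miR846-5p and miR846-3p lie at chr1:22577426-22577446 and chr1:22577662-22577682, and miR863-5p and miR863-3p at chr4:7846644-7846664 and chr4:7846835-7846855, all on the plus strand. miR831-3p is at chr2:10247390-10247411 and miR782 at chr3:5500048-5500068, also on the plus strand.

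The 75 miRNAs carried 103 mature names, and all 103 had a sequence in the reference. U was the first base of 71 names (68.9%), A of 18, C of 7 and G of 7. There were 78 names of 21 nt, 16 of 22 nt, 6 of 24 nt and 3 of 20 nt. Besides miR447, shared seeds joined miR854b, miR854c, miR854d and miR854e (AUGAGGA), miR405a, miR405b and miR405d (UGAGUUG), and, across families, miR472-3p and miR865-3p (UUUUCCU). Seeds were also shared by miR841a-5p and miR841b-5p, by miR833a-5p and miR833b, and by miR781a and miR781b. Protein-coding genes overlapped the bins of 16 miRNAs, and transposable elements those of 12.

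Most of these miRNAs were low. Averaged over the 12 libraries, 3 reached 100 RPM, 21 lay between 10 and 100 RPM, 30 between 1 and 10 RPM and 21 under 1 RPM. The 4 highest, miR447b, miR858a, miR447a and miR472, held 58.0% of the RPM of all members. The summed level was 900 ± 565 RPM in ntp4-1, 1308 ± 465 RPM in heso1-1, 1188 ± 565 RPM in urt1-1 and 1338 ± 476 RPM in Col-0 (SD, n = 3 each). The single libraries were at 247, 1241 and 1212 RPM in ntp4-1, 779, 1495 and 1651 RPM in heso1-1, 1052, 1808 and 703 RPM in urt1-1, and 828, 1770 and 1418 RPM in Col-0. The groups overlapped, and the members made up 2.54% to 4.15% of the RPM of all miRNAs in any library.

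The libraries hold 2761330 to 11191516 reads as implied by the worth of 1 read in each column, and 1878 to 16728 reads fall on the members. The bins listed hold 28.7% of the library in ntp4-1 replicate 1 and 67.5% in Col-0 replicate 2. Across bins without a miRNA name the libraries fell into 2 sets that no label names, and set A was 5 libraries: replicate 1 of every genotype and urt1-1 replicate 3. The other 7 libraries make up set B. RPM of all miRNAs ran from 9719 to 32015 in set A and from 31623 to 52604 in set B, and ntp4-1 replicate 1 was the lowest library, with 21 members at 0. The conserved inflorescence miRNAs miR156, miR159, miR164, miR165, miR166, miR167, miR172 and miR319 were present in every library. Of the pollen markers, miR845 was at 119 to 2854 RPM and miR2939 at 0.0899 to 7.24 RPM, and the summed pollen markers were 289 to 853 RPM in ntp4-1, 126 to 2427 RPM in heso1-1, 347 to 2072 RPM in urt1-1 and 1485 to 2854 RPM in Col-0. All ntp4-1 libraries lay below all Col-0 libraries in that sum. Within every genotype the set A libraries had the higher pollen sum. In Col-0 it was 2854 RPM in set A and 1485 and 1671 RPM in set B. The conserved inflorescence miRNAs together were lower in set A within every genotype. In Col-0 they were at 12316 RPM in set A and 17283 and 15074 RPM in set B. The part of these markers in the results below was not tested. In whole inflorescences, fewer cells of a type and less RNA per cell cannot be told apart.

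The set of a library went with the level of many members. Among the 51 separate member values with a mean of at least 1 RPM, 26 (51.0%) had all 5 libraries of set A below all 7 libraries of set B, and 0 had them above. Among the 26 is miR447a, whose 3p sequence is identical to miR447b, and without it the count was 25 of 50. Of 39098 features with at least 1 RPM in the whole table, 19.9% had set A below set B and 0.885% above it. miR824, which guides cleavage of the mRNA of the MADS factor AGL16, was at 2.37 to 9.80 RPM in set A and 31.5 to 134 RPM in set B. miR839, from a hairpin known to be cut by DICER-LIKE 4, was at 1.05 to 4.51 RPM in set A and 19.1 to 54.1 RPM in set B. Both sets contain each genotype, with 1 ntp4-1, 1 heso1-1, 2 urt1-1 and 1 Col-0 library in set A. Among 45 mature names alone in their bins at 1 RPM or more, set A was below set B for 20 of 35 that begin with U, 1 of 4 with A, 2 of 3 with C and 0 of 3 with G. The third name with C, miR846-5p, had set A all above set B, with medians of 23.6 RPM in set A and 11.4 RPM in set B.

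**Figure D1:**
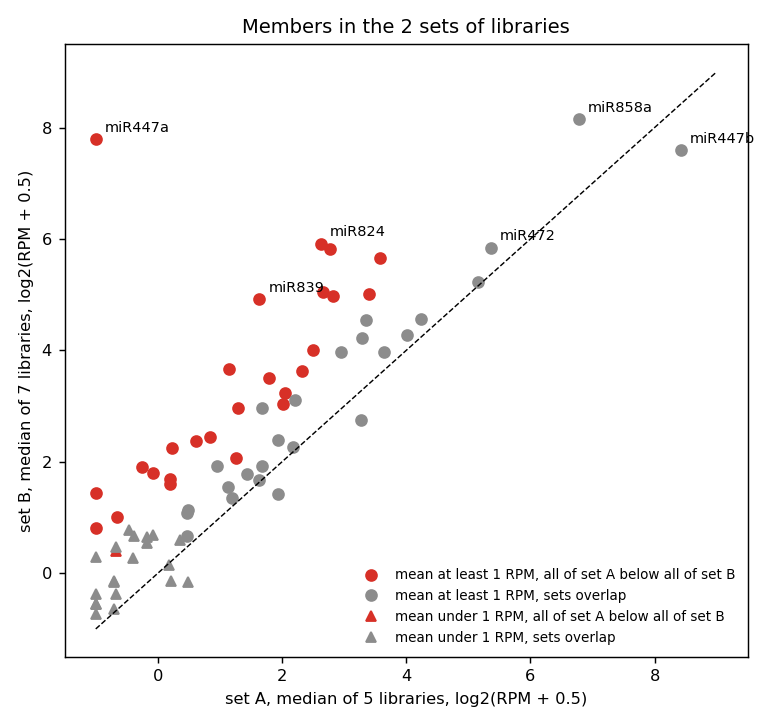
Median level of each of 72 members in the 5 libraries of set A (x axis) and the 7 libraries of set B (y axis), both as log2(RPM + 0.5), with circles for a mean of at least 1 RPM, triangles for a lower mean and the dashed line for equal levels. The 26 separate values at 1 RPM or more whose set A libraries all lie below set B are in red, above the line, while miR472 lies near it.

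No member passed the test of level in any of the 3 comparisons. Levels were tested with limma on log2(RPM + 0.5) over every miRNA and every bin without a miRNA name that reached a mean of 1 RPM, and called at a Benjamini-Hochberg adjusted p under 0.05. In ntp4-1 against Col-0, 0 of 50 members tested were called, where 0.0757% of all 39650 features were (30 features). In heso1-1 against Col-0 it was 0 of 53 members, with 0.0528% of 43597 features called, and in urt1-1 against Col-0 it was 0 of 49 members, with 0.186% of 41860 features called. At an unadjusted p under 0.05 there were 3, 4 and 1 members in ntp4-1, heso1-1 and urt1-1, where 18.4%, 6.2% and 6.88% of all features were. DESeq2 and edgeR on recovered reads called 0 members in each comparison. The 3 comparisons share the Col-0 libraries.

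The median change of the members lay above that of all features in each comparison. In ntp4-1 the median log2 fold change against Col-0 was -0.33 over the 50 members and -0.75 over all features, and 32 of the 50 were negative. In heso1-1 it was 0.14 over the 53 members and -0.23 over all features. In urt1-1 it was -0.15 over the 49 members and -0.40 over all features. TMM scaling, which sets the bulk of features near 0, gave members' medians of 0.41 in ntp4-1, 0.36 in heso1-1 and 0.25 in urt1-1, beside -0.09, -0.04 and -0.02 for all features, so the sign of the members' median turned in ntp4-1 and urt1-1. Conserved miRNAs had medians of -0.52 in ntp4-1, 0.43 in heso1-1 and -0.37 in urt1-1 on the deposited scale.

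**Figure D2:**
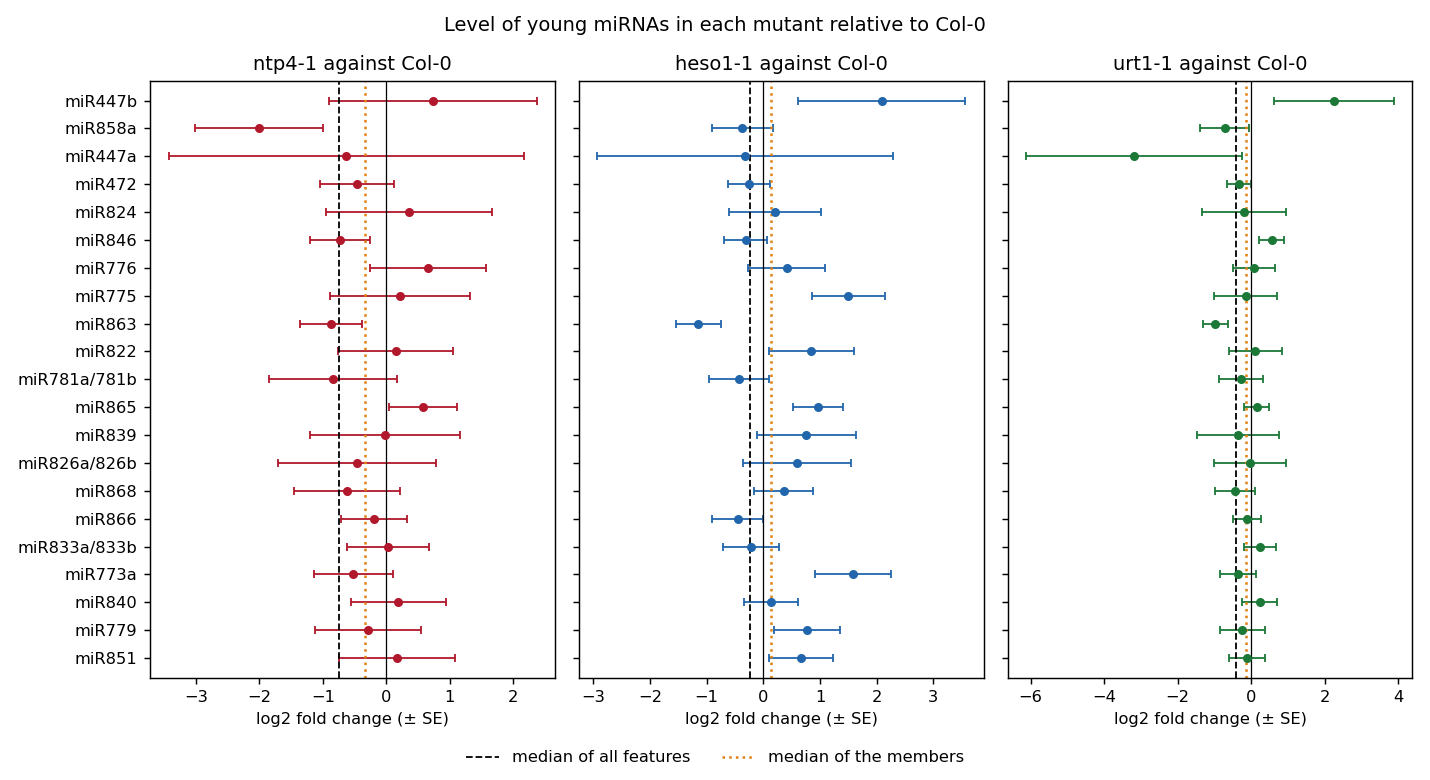
Log2 fold change of level against Col-0 with its standard error (x axis) for the 21 members with a mean of at least 10 RPM (rows, highest at the top), in ntp4-1, heso1-1 and urt1-1 from left to right. The dashed line is the median of all features (-0.75, -0.23 and -0.40) and the dotted line that of the members (-0.33, 0.14 and -0.15); the widest bars are those of miR447a and miR447b.

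The highest family, miR447, is known to target a 2-phosphoglycerate kinase transcript. The locus with most reads changed between libraries, and the cause was not tested. The miR447a bin was listed at 0 in all 5 libraries of set A, where 3 reads would be 0.270 to 0.395 RPM. The miR447b bins stood at 1.78 RPM in Col-0 replicate 2, where the miR447a bin had 733 RPM. How reads matching both copies were placed is not given in the sources used here, so the sum over both loci is given. The miR447a bin (chr4:1528101-1528200) also holds miR447a.2-3p (chr4:1528148-1528168), a different sequence, and part of miR447a-3p lies outside that bin. How much of the sum is miR447a.2-3p was not measured. The sum was 91.9, 319.1 and 334 RPM in ntp4-1, 315, 447 and 675 RPM in heso1-1, 535, 566 and 342 RPM in urt1-1, and 398.7, 735 and 542 RPM in Col-0. All 3 ntp4-1 libraries were below all Col-0 libraries, as 28.6% of all features were, and the other mutants overlapped Col-0. The median log2 fold change of all features in ntp4-1 was -0.75, and the sum was not fitted with TMM scaling. The log2 fold change of the sum was -1.34 ± 0.55 (SE) in ntp4-1 (limma adjusted p = 0.247), -0.25 ± 0.38 in heso1-1 (limma adjusted p = 0.947) and -0.20 ± 0.34 in urt1-1 (limma adjusted p = 0.850). This sum was formed after the values were seen. miR447c, at 0.132 to 3.29 RPM, was far lower than the other copies.

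**Figure D3:**
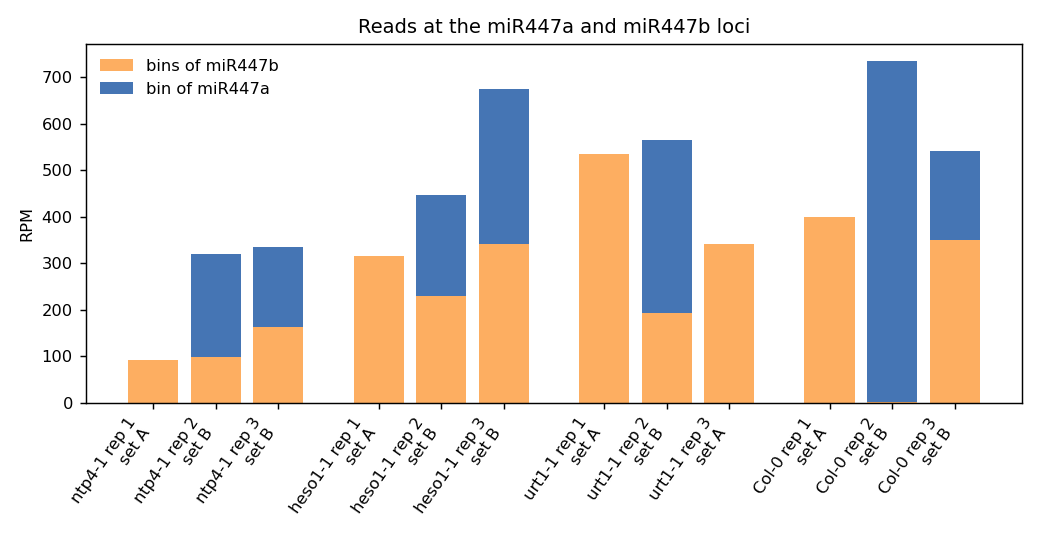
RPM at the bins of miR447b (orange) and miR447a (blue), stacked, in each of 12 libraries, with ntp4-1, heso1-1, urt1-1 and Col-0 from left to right and the library set under each bar. Blue is missing from all 5 libraries of set A, and Col-0 replicate 2 is nearly all blue.

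miR858a guides cleavage of MYB transcripts of flavonoid synthesis. It was at 9.22, 111 and 194 RPM in ntp4-1, 110, 359 and 160 RPM in heso1-1, 135, 376 and 60.0 RPM in urt1-1, and 116, 411 and 285 RPM in Col-0. Within every genotype the set A libraries were the lowest, and each mutant overlapped Col-0. The log2 fold change was -2.00 ± 1.00 (SE) in ntp4-1 (limma adjusted p = 0.306), -0.37 ± 0.54 in heso1-1 (0.942) and -0.72 ± 0.66 in urt1-1 (0.747). With TMM scaling the ntp4-1 value was -1.12. miR858b, far lower at 0.132 to 12.1 RPM, had -1.42 ± 0.98 in ntp4-1 (limma adjusted p = 0.426).

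Same-numbered ntp4-1 and Col-0 libraries deviated together from their group means. Replicate 1 of both is in set A, so pairing and the library split cannot be told apart. With the replicate number as a block 8 of 50 members passed, where 27.6% of all features did (10953 of 39650). The 6 lower ones, beside 26.8% of all features, were miR858a (limma adjusted p = 0.000846), miR782 (0.00460), miR831 (0.00484), miR405b (0.00489), miR858b (0.0150) and miR854c (0.0361), and the 2 higher ones, beside 0.845% of all features, miR870 (0.0119) and miR864 (0.0470). Over the alternatives tried, the adjusted p of miR858a ran from 0.000846 to 1.00. With the block together with TMM scaling, chosen after seeing the data, none of these 8 passed (limma adjusted p from 0.0755 for miR870 to 0.378 for miR854c), and 1 other member did, miR865 at 1.46 log2 higher (limma adjusted p = 0.0376), beside 1.23% of all features. Without ntp4-1 replicate 1, 5 members passed, beside 6.96% of all features in either direction. Of these members miR776, miR864 and miR870 were higher, beside 289 of 39650 features, and miR782 and miR831 lower, beside 2469 of 39650. In heso1-1, whose same-numbered libraries also deviated together with those of Col-0, the block gave 0 of 53 members, beside 0.0321% of all features.

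The split of the libraries moved these counts further, in fits chosen after seeing the data. With the library set as a term, 8 of 50 members passed in ntp4-1, 0 of 53 in heso1-1 and 1 of 49 in urt1-1, beside 33.0%, 0.055% and 4.08% of all features. With that term and TMM scaling it was 3 members in ntp4-1 (miR776, miR865 and miR870, all higher), 0 in heso1-1 and 3 in urt1-1 (miR775, miR776 and miR859, all higher), beside 3.42%, 0.078% and 3.32% in either direction. Of all features in that fit, 708 were called higher and 649 lower in ntp4-1, and 670 higher and 720 lower in urt1-1. Within set B it was 13 members in ntp4-1 (8 higher and 5 lower) and 0 in heso1-1, beside 19.6% and 0.0229% in either direction. Of all features in ntp4-1 within set B, 700 were called higher and 7078 lower. For urt1-1 the fit within set B rests on 1 urt1-1 library, so the members it called are not read as a result.

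Among miRNAs linked to disease resistance, miR472 guides cleavage of transcripts of coiled-coil NB-LRR receptors. It was at 18.4, 60.8 and 66.0 RPM in ntp4-1, 40.8, 52.9 and 52.9 RPM in heso1-1, 52.4, 49.5 and 37.2 RPM in urt1-1, and 55.1, 62.3 and 57.0 RPM in Col-0. All heso1-1 and all urt1-1 libraries were below all Col-0 libraries, as 12.3% of all features were in heso1-1 and 14.7% in urt1-1. The log2 fold changes were small, at -0.26 ± 0.37 (SE) in heso1-1 (limma adjusted p = 0.941) and -0.34 ± 0.33 in urt1-1 (limma adjusted p = 0.756). With TMM scaling the value was -0.02 in heso1-1 and turned to 0.13 in urt1-1. In ntp4-1, replicate 1 alone was low. miR825 was at 0.527, 1.82 and 2.19 RPM in ntp4-1 and 2.61, 2.61 and 3.32 RPM in Col-0.

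miR863, whose 3p strand is known to target kinase and SERRATE transcripts in the response to bacteria, was lower than every Col-0 library in all 9 mutant libraries. Of all features, 28.6% lay all below Col-0 in ntp4-1, 12.3% in heso1-1 and 14.7% in urt1-1. The comparisons share the Col-0 libraries, and the share below Col-0 in every mutant at once was not computed. It was at 17.1, 27.8 and 23.2 RPM in ntp4-1, 17.9, 22.7 and 15.2 RPM in heso1-1, 22.3, 22.2 and 18.3 RPM in urt1-1, and 50.6, 34.7 and 39.9 RPM in Col-0. The log2 fold change was -0.87 ± 0.49 (SE) in ntp4-1 (limma adjusted p = 0.347), -1.15 ± 0.40 in heso1-1 (0.775) and -0.97 ± 0.35 in urt1-1 (0.682). With TMM scaling it became 0.01 in ntp4-1, -0.91 in heso1-1 and -0.51 in urt1-1, so the ntp4-1 value was near 0 on that scale. With the library set as a term, chosen after seeing the data, it passed in ntp4-1 (limma adjusted p = 0.0492) and urt1-1 (0.0416), whose adjusted p over the alternatives ran from 0.0492 to 1.00 in ntp4-1 and from 0.0416 to 1.00 in urt1-1.

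miR846, known for guiding cleavage of jacalin lectin transcripts, separated urt1-1 and ntp4-1 on opposite sides of Col-0. It was at 28.1, 23.9 and 23.8 RPM in ntp4-1, 30.8, 36.8 and 34.4 RPM in heso1-1, 71.4, 54.9 and 61.7 RPM in urt1-1, and 35.1, 47.3 and 44.8 RPM in Col-0. The log2 fold change was -0.73 ± 0.47 (SE) in ntp4-1 (limma adjusted p = 0.399), -0.31 ± 0.38 in heso1-1 (0.930) and 0.56 ± 0.33 in urt1-1 (0.685). TMM scaling moved these to 0.16 in ntp4-1, -0.07 in heso1-1 and 1.02 in urt1-1, so the ntp4-1 sign depended on the scaling. miR842, with related targets, was at most 0.724 RPM in any library.

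**Figure D4:**
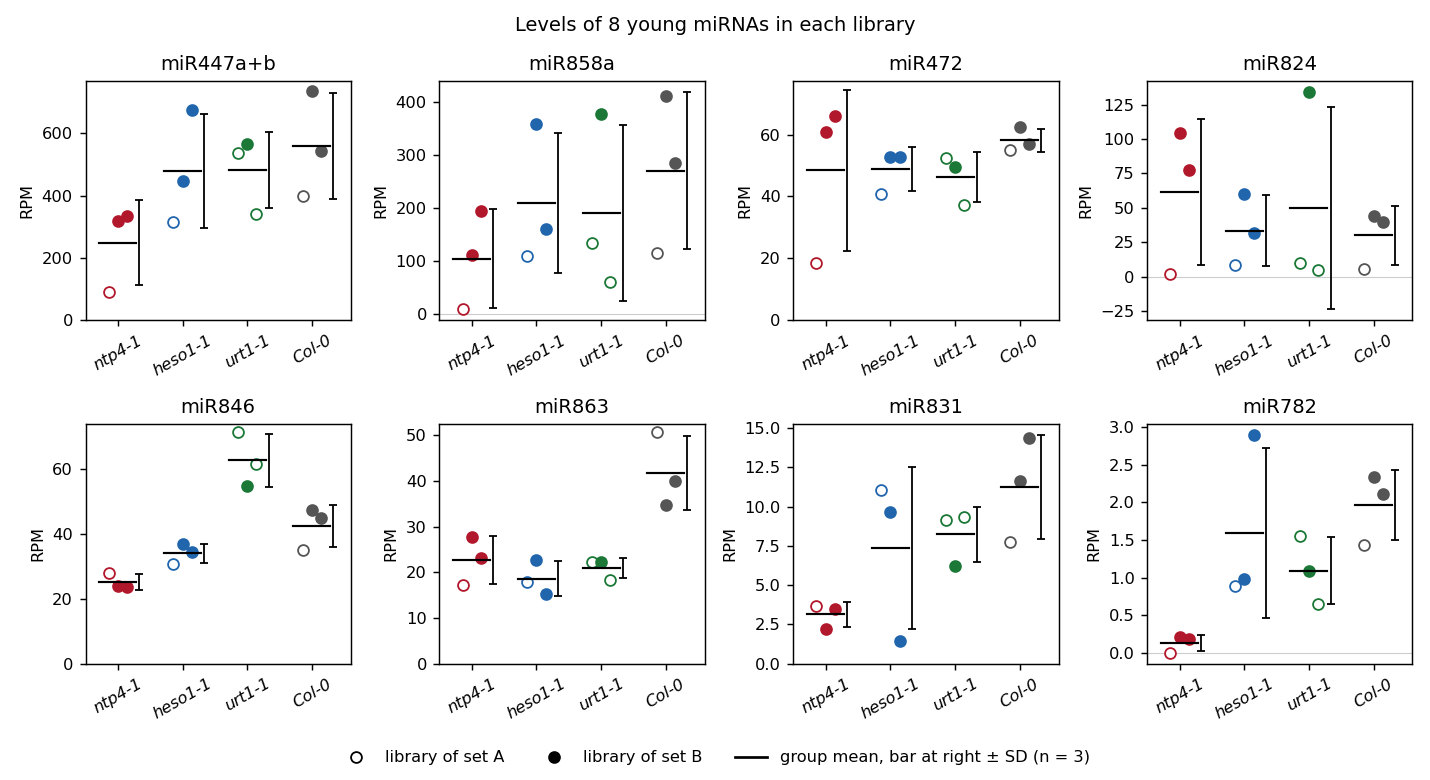
RPM of miR447a and miR447b together and of 7 other members in each library (points, open for set A and filled for set B), with ntp4-1, heso1-1, urt1-1 and Col-0 from left to right, the group mean as a line and its SD (n = 3) as a bar. All mutant libraries lie below Col-0 for miR863, and the set A libraries are the lowest of each genotype for miR824.

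In ntp4-1, 7 of 50 members (14.0%) had all 3 libraries below all Col-0 libraries, where 28.6% of all features did, and 0 had them all above, where 0.573% did. The 7 were miR863, miR846, miR825 and 4 low members. miR831 was at 3.69, 2.23 and 3.47 RPM in ntp4-1 and 7.73, 11.7 and 14.4 RPM in Col-0, a log2 fold change of -1.68 ± 0.51 (SE; limma adjusted p = 0.182). miR782, in a bin that miR2934 shares, was at 0, 0.203 and 0.183 RPM in ntp4-1 and 1.44, 2.33 and 2.11 RPM in Col-0, a log2 fold change of -1.97 ± 0.51 (limma adjusted p = 0.157). These ntp4-1 libraries hold 0 or 1 read of it. miR405b, a 24-nt name, was at 1.32, 2.43 and 0.548 RPM in ntp4-1 and 5.30, 5.08 and 4.52 RPM in Col-0, with -1.62 ± 0.53 (limma adjusted p = 0.193). miR406 was at 2.11, 1.01 and 2.19 RPM in ntp4-1 and 3.33, 4.12 and 3.22 RPM in Col-0. With TMM scaling all 4 were still negative, from -1.63 for miR782 to -0.09 for miR406.

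In heso1-1, 2 of 53 members lay all above Col-0, where 1.29% of all features did, and 3 lay all below, where 12.3% did. The higher ones were miR865, at 48.2, 33.8 and 18.8 RPM in heso1-1 and 13.0, 17.4 and 17.4 RPM in Col-0 (0.97 ± 0.45 log2; limma adjusted p = 0.775), and miR774a, which guides cleavage of an F-box transcript. miR774a was at 0.223, 0.268 and 5.43 RPM in heso1-1 and 0.0899, 0.137 and 0.101 RPM in Col-0, so replicate 3 carried its mean. The lower ones were miR863, miR472 and miR406. miR775, which targets a galactosyltransferase transcript, was at 22.8, 66.7 and 63.4 RPM in heso1-1 and 5.30, 27.7 and 26.5 RPM in Col-0 (1.50 ± 0.65 log2; limma adjusted p = 0.775). Its lowest heso1-1 library, of set A, overlapped Col-0. In urt1-1, 1 of 49 members lay all above Col-0 (miR846), where 1.15% of all features did, and 2 all below (miR863 and miR472), where 14.7% did.

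Among the other high members, all libraries of set B were above all of set A for miR824, miR776 and miR822. The same held for miR781a with miR781b and for miR826a with miR826b. The sets overlapped for others, such as miR865 and miR868. miR824 was at 2.37, 104 and 77.5 RPM in ntp4-1, 8.47, 60.0 and 31.5 RPM in heso1-1, 9.80, 134 and 4.80 RPM in urt1-1, and 5.66, 44.3 and 40.0 RPM in Col-0. miR776 was at 6.72, 92.0 and 62.7 RPM in ntp4-1, 10.4, 26.1 and 86.6 RPM in heso1-1, 16.8, 50.0 and 13.7 RPM in urt1-1, and 11.4, 30.9 and 28.1 RPM in Col-0. The genotypes overlapped for both, and in urt1-1 the single set B library was the high one. miR822, from a DICER-LIKE 4 hairpin, ranged from 2.90 to 78.6 RPM over the 12 libraries, miR781a and miR781b together from 1.71 to 46.0 RPM, and miR826a and miR826b, whose known target is the glucosinolate gene AOP2, together from 1.05 to 38.6 RPM.

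By the roles of their targets, 0 members of any group passed in any comparison. Those with silencing or chromatin targets, such as miR773a (a DNA methyltransferase) and miR823 (CMT3), had 2 tested members in ntp4-1 (median log2 fold change -0.40), 3 in heso1-1 (0.60) and 2 in urt1-1 (-0.08). TMM scaling gave them medians of 0.29 in ntp4-1, 0.78 in heso1-1 and 0.32 in urt1-1. In heso1-1, miR773a was at 9.25, 14.6 and 72.1 RPM, while Col-0 had 4.14, 10.8 and 7.04 RPM, so replicate 3 stood far above. The 3 DICER-LIKE 4 hairpin members, miR822, miR839 and miR869, had medians of -0.02 in ntp4-1, 0.76 in heso1-1 and -0.20 in urt1-1, and with TMM scaling 0.76 in ntp4-1, 0.99 in heso1-1 and 0.22 in urt1-1. For both groups of members the sign in ntp4-1 and urt1-1 thus turned with the scaling. Those with metabolism or transport targets, with miR447a and miR447b as 1 value, were 5 and had medians of -0.46 in ntp4-1, 0.60 in heso1-1 and -0.15 in urt1-1 on the deposited scale. The F-box member miR859 was at 0.658, 11.1 and 9.14 RPM in ntp4-1, 3.34, 7.33 and 5.43 RPM in heso1-1, 3.35, 12.7 and 1.95 RPM in urt1-1, and 1.17, 6.04 and 6.33 RPM in Col-0. miR847, with an auxin-related target, was under 1.1 RPM in every library and was not tested.

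Small RNA at 18 known target loci was looked for in the same table, and 6 of them had bins. Of these bins, 7 were tested in ntp4-1, 9 in heso1-1 and 10 in urt1-1, with 0 called in each. The bins of the NB-LRR gene AT5G43740 summed to 11.2, 12.4 and 11.3 RPM in ntp4-1, 20.9, 15.7 and 19.2 RPM in heso1-1, 32.6, 19.2 and 28.0 RPM in urt1-1, and 42.3, 27.7 and 25.8 RPM in Col-0. The ntp4-1 and heso1-1 libraries were all below Col-0, as 28.6% of all features were in ntp4-1 and 12.3% in heso1-1 (14.7% in urt1-1). The sums at other loci also lay all below Col-0 in some mutants: DMT2 in ntp4-1, and DCL1 in heso1-1 and urt1-1. In urt1-1 the sums at ZAT and MYB111 lay all above Col-0, as 1.15% of all features did. ZAT was at 3.22, 3.52 and 2.72 RPM in urt1-1 and 2.34, 1.10 and 1.41 RPM in Col-0. MYB111 was at 0.903, 2.43 and 0.648 RPM in urt1-1 and 0.360, 0 and 0.503 RPM in Col-0. These loci were named after their values were seen, and their sums were not tested. mRNA levels were not measured.

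The balance of strands could be read for the 12 members whose 5p and 3p names lie in separate bins, and 7 of them reached 10 RPM for both arms together. In 12 more the arms share a bin, 4 list 1 arm, and 47 have no arm in their name. Bins hold no strand of the genome, so the arm is read from position alone. The log2 ratio of 5p to 3p was tested over 44 arm pairs, 11 of them members. In ntp4-1, 0 of 11 passed, where 6.82% of all pairs did (3 pairs). In heso1-1 and in urt1-1, 0 of 11 members and 0.0% of all 44 pairs passed by limma, and 0 members were at an unadjusted p under 0.05 in either. In ntp4-1 there was 1 such member (miR861). Over all 44 pairs the share at an unadjusted p under 0.05 was 27.3% in ntp4-1, 0.0% in heso1-1 and 4.55% in urt1-1.

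The 5p share differed widely among the members. miR863 reads were nearly all 5p, at 96.2%, 83.2% and 87.4% in ntp4-1, 97.5%, 88.6% and 95.2% in heso1-1, 98.3%, 95.1% and 97.9% in urt1-1, and 98.4%, 93.3% and 91.9% in Col-0. The 3p strand, for which targets are known, was thus at 0.387 to 4.66 RPM. The lower miR863 RPM of the mutant libraries, which was not called in the main test, lay in the 5p bin. That bin held 16.5, 23.1 and 20.3 RPM in ntp4-1, 17.5, 20.1 and 14.5 RPM in heso1-1, 21.9, 21.1 and 17.9 RPM in urt1-1, and 49.8, 32.4 and 36.7 RPM in Col-0. All mutant libraries were below all Col-0 libraries there.

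miR846 changed its leading strand between libraries. The 5p share was 84.0%, 44.1% and 40.0% in ntp4-1, 53.3%, 26.2% and 33.7% in heso1-1, 54.3%, 25.6% and 72.5% in urt1-1, and 50.0%, 24.1% and 31.6% in Col-0. In each genotype the set A libraries had the higher share, and the groups overlapped. The 5p strand begins with C and the 3p strand with U. In ntp4-1 the log2 ratio changed by 1.36 ± 0.87 (SE; limma adjusted p = 0.381). With the replicate number as a block 2 members passed in ntp4-1, where 38.6% of all pairs did: miR846 at 1.36 (limma adjusted p = 0.0259) and miR863 at -1.15 (0.0259). With the library set as a term 3 members passed in ntp4-1 beside 43.2% of all pairs, and within set B 3 passed in ntp4-1 and 5 in urt1-1, each beside 45.5% of all pairs.

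miR472 was read mostly from its 5p bin, at 96.4%, 90.3% and 92.5% in ntp4-1, 94.8%, 81.8% and 71.2% in heso1-1, 95.6%, 79.8% and 96.2% in urt1-1, and 97.6%, 91.2% and 88.9% in Col-0. The groups overlapped, and the log2 ratio changed by -1.25 ± 0.82 (SE) in heso1-1 (limma adjusted p = 0.825). miR822 in heso1-1 was the 1 member there of 11 whose 5p share lay all above Col-0, beside 2.27% of the 44 pairs (1 pair). It was at 59.0%, 66.8% and 77.9% in heso1-1 and 46.6%, 55.6% and 53.9% in Col-0 (0.95 ± 0.54 log2; limma adjusted p = 0.825). miR866 was read mostly from its 3p bin, with a 5p share of 21.1%, 21.4% and 20.4% in urt1-1 and 29.8%, 34.4% and 22.4% in Col-0, all lower in urt1-1 (-0.53 ± 0.31 log2; limma adjusted p = 0.630), as in 6.82% of the 44 pairs (3 pairs). miR824 and miR851 ranged from 51.3% to 78.1% and from 36.6% to 85.3%, with overlapping groups.

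**Figure D5:**
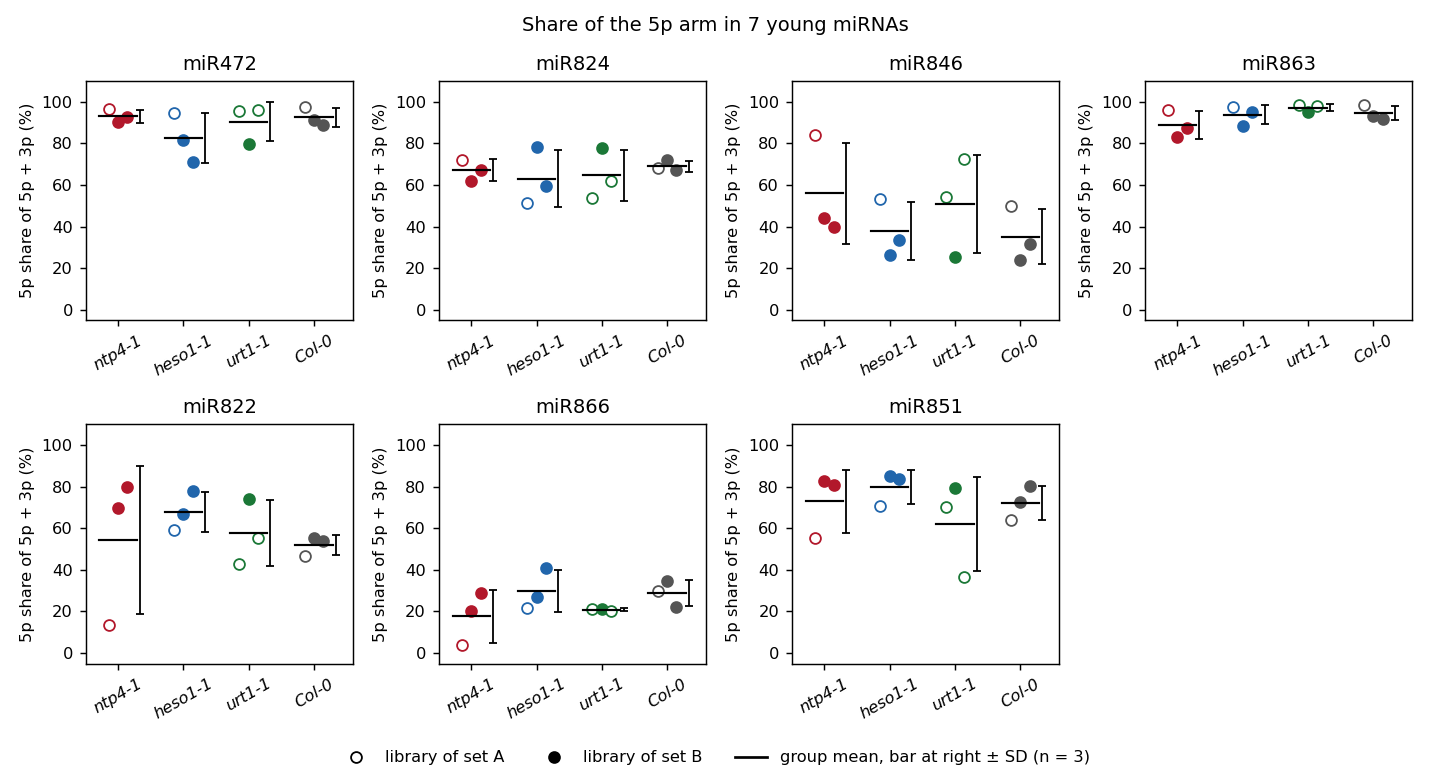
Share of the 5p bin in the RPM of both arms, in percent, for the 7 members at 10 RPM or more (panels), in each library (points, open for set A and filled for set B), with ntp4-1, heso1-1, urt1-1 and Col-0 from left to right, the mean as a line and its SD (n = 3) as a bar. miR863 and miR472 lie high, miR866 low, and the open points of miR846 lie above the filled ones in every genotype.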

How the data were processed

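Per the file headers and labels, the authors deposited RPM in bins of 100 bp for 12 libraries. The sources used here name no aligner, build, rule for multiply matching reads or treatment of tailed reads. The bins of each miRNA (number and letter, arms added) were summed, and 422 of 422 name and bin pairs overlapped TAIR10.1. Columns were tested with limma 3.58.1 (R 4.3.3, trend, two-sided) on log2(RPM + 0.5), which understates changes of low features. Features needed a mean of 1 RPM in the 6 libraries, and p-values were Benjamini-Hochberg adjusted over all features. All 12 columns held whole multiples of the worth of 1 read (within 1e-06). A separate check of recovered reads accepted 11 columns for edgeR 4.0.16 and DESeq2 1.42.0, and Col-0 replicate 3 was left out there. The steps were tested on simulated data.

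Same-numbered libraries deviated together from their group means in ntp4-1 and Col-0 (r = 0.648, 0.382 and 0.321) and in heso1-1 and Col-0 (0.566, 0.251 and 0.188). The replicate block was fitted on that ground. Among all genotypes, differently numbered libraries reached r = 0.486, above some of these values. Replicate 1 is in set A in every genotype, so pairing and the library split cannot be told apart. Members and lists were chosen with earlier results of these data known. Named members were the 15 highest, those called, the 5 largest rises and 5 largest falls without overlap between groups per comparison, arm pairs at 10 RPM or more, and members at 0 in a whole group with 1 RPM in another (0 found); others were named after their values were seen.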

Additional observations from a re-analysis of the deposited data

Results flagged for a closer look

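The level of miR846 lay above Col-0 in all 3 urt1-1 libraries and below Col-0 in all 3 ntp4-1 libraries, with a log2 fold change 1.29 larger in urt1-1 than in ntp4-1. With TMM scaling the log2 fold change was 0.16 in ntp4-1 and 1.02 in urt1-1, so the ntp4-1 sign depended on the scaling. Of all features, 28.6% lay all below Col-0 in ntp4-1 and 1.15% all above it in urt1-1. The difference between the mutants was not tested, and both comparisons share the Col-0 libraries.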

How the results depend on the processing

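The count of 0 members called held for heso1-1, in level and in arm ratio, under every alternative run. For ntp4-1 levels it became 8 with the replicate block, 1 with the block and TMM scaling, 8 with the library set as a term, 3 with that term and TMM scaling, 13 within set B, and 0 to 5 when single replicates were left out (5 without ntp4-1 replicate 1). For urt1-1 levels it became 1 with the set term and 3 with that term and TMM scaling. The fit within set B also moved the count, but there a lone urt1-1 library is assumed to vary like the Col-0 ones. In the fits with the set, 4 urt1-1 values called there had the other sign on the deposited scale without the set: within set B miR824 was at 1.66, miR775 at 1.03 and miR839 at 1.37, and with the set term and TMM scaling miR775 was at 0.92, where TMM scaling alone gave 0.30. For arm ratios in ntp4-1 the count became 2 with the replicate block, 3 with the set term and 3 within set B. Without single replicates it was 0 to 2. The 2 of 11 members came without ntp4-1 replicate 1, beside 14 of all 44 pairs. For urt1-1 arm ratios the fit within set B also moved the count, and it rests on the same lone urt1-1 library. Leaving out single replicates gave 0 members for urt1-1 in both measures. Same-numbered libraries of urt1-1 and Col-0 did not all deviate together (r = 0.391, 0.451 and -0.284). The block there gave 0 members and 238 features. The cause of these moves was not tested. The set terms, the fits within a set, the block with TMM scaling and the miR447 sum were chosen after seeing the data.

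Over the whole table, calls ran from 0 (edgeR and the fits without ntp4-1 replicate 2 or 3 or Col-0 replicate 2 or 3) to 13081 (set term) in ntp4-1, from 0 (edgeR) to 114 (DESeq2) in heso1-1 and from 0 (within set A) to 1737 (within set B) in urt1-1. A change of sign of a value called in neither setting, which occurred for 67 of 415 level values of named members in ntp4-1, 13 of 435 in heso1-1 and 95 of 435 in urt1-1, is not counted as a reversal. Depth limits the low members: ntp4-1 replicate 1 holds 1878 reads on all of them, 3 reads there are 0.395 RPM, and members under a mean of 1 RPM were tested only without the filter, where 0 of 72 members passed in each comparison.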
